A study of Mus musculus with 2 samples.

Results

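The 8 genes described here, Terf1, Terf2, Tinf2, Pot1a, Acd, Tert, Rif1 and Atrx, maintain or protect telomeres, and they were chosen by their symbols among the 55415 features of the deposited tables. All 8 symbols were present. Transcripts were counted in single embryonic stem cells of the mouse, which are pluripotent cells grown in culture. A MERVL promoter drove their GFP reporter (MERVL is an endogenous retrovirus switched on in a state that resembles the 2-cell embryo), and H2B-mIFP, a fluorescent histone, served to follow cells. The study asked what becomes of cells that enter that state. There was 1 library of MERVL GFP positive and 1 of MERVL GFP negative cells, both labelled as mESC with no treatment named, and they are called the positive and the negative library below. The strain of the line, the number of clones and the way cells were separated by the reporter are not given in the sources used here. Each group is 1 library, so differences are given with counting error alone and without a test. Group and library coincide, so the effects of group and of any batch cannot be told apart.

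Telomeres are the repeated ends of chromosomes. Shelterin is the protein complex that coats them: TRF1 (Terf1) and TRF2 (Terf2) bind the double-stranded repeat, TIN2 (Tinf2) links both to TPP1 (Acd), and TPP1 carries POT1 (Pot1a in the mouse), which binds the single-stranded end. Tert is the reverse transcriptase of telomerase, the enzyme that adds repeats. RIF1 controls replication timing and the choice of repair pathway at breaks, and ATRX places histone H3.3 in telomeric and other repeated chromatin and is known for restraining recombination between telomeres. Zscan4 genes are transcribed in bursts in a minority of embryonic stem cells, and such bursts are known for telomere lengthening by recombination rather than by telomerase. That is why the 8 genes are given here by library and by the Zscan4 level of the cell.

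On the mouse build GRCm38 the genes lie apart, with each span taken from the GENCODE annotation and all 8 annotated as protein coding. Terf1 lies at chr1:15805646-15844052 on the plus strand. Terf2 lies at chr8:107069400-107096547 and Acd at chr8:105695860-105701102, both on the minus strand. Tinf2 lies at chr14:55674689-55681820 on the minus strand, and its exons overlap those of Gmpr2 on the opposite strand. The exons of Acd overlap those of Carmil2 in the same way. Pot1a lies at chr6:25743737-25809246 on the minus strand and Tert at chr13:73626911-73649843 on the plus strand. Rif1 lies at chr2:52072832-52122383 on the plus strand and Atrx at chrX:105797615-105929403 on the minus strand. Whether counting used the strand is not given in the sources used here, so values of the overlapping partners stand beside those of Tinf2 and Acd.

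Promoters of 6 of the 8 genes were in the RefSeq table of the build GRCm38.p6. The sequences of Tinf2 and Pot1a are shown because these 2 genes were the ones whose levels stood in rising order over the Zscan4 classes described below. Each runs 5′ to 3′ on the minus strand, from 250 bases before the annotated start to 30 bases after it, with the 8-base cyclic AMP response element TGACGTCA in capitals.
Tinf2, chr14:55681788-55682067: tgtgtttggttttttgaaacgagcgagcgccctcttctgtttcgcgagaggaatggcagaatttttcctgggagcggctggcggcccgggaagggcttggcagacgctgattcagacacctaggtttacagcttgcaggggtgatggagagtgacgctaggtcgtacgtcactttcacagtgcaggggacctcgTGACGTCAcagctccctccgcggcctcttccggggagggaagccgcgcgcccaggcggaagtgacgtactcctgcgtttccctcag
Pot1a, chr6:25809189-25809468: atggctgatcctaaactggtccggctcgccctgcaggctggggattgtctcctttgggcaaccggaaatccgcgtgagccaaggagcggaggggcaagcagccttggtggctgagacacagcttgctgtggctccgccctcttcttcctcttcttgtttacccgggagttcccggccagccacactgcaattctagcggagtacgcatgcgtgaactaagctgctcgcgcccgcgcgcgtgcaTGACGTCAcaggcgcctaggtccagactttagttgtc
The element reads the same on both strands. It began 56 bases before the RefSeq start of Tinf2 and 7 bases before that of Pot1a. The GENCODE span of Pot1a given above begins farther upstream, so the element lies inside that span. The promoters of Acd, Terf2, Tert and Atrx held no match in 300 bases. Of 27025 mouse promoters of that length, 1.88% held it. The telomere repeat TTAGGG was found on neither strand of the 6 promoters and in 10.5% of all promoters, and TGTGTGTG was found in none of the 6 and in 3.98% of all. The first motif was picked after these sequences had been seen, and a match describes the letters only.

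The positive library held 4596 cells after filtering, with 138303336 UMIs, the counted molecules, and the negative one 3832 cells with 156406894 UMIs. The median cell had 29554.5 and 39099.5 UMIs, with 2.56% and 1.60% from mitochondrial genes. The libraries shared 3 cell barcodes. The reporter followed the labels, with 205 GFP CPM (UMIs scaled to the summed UMIs of the same cells) in the positive and 0.454 in the negative library. The 9 Zscan4 features together stood at 483 and 0.812 CPM. All 7 pluripotency markers were present in both libraries, at a summed 2559 and 3211 CPM. Nanog was higher in the positive library, at 410 against 192 CPM. The rest of the list was lower there, with Utf1 at 162 against 448 CPM. All 10 endoderm markers had UMIs in both libraries, at a summed 232 and 117 CPM. Fibroblast markers, for feeder cells, summed to 21.3 and 7.40 CPM. Most of this came from Thy1, at 9.29 and 2.15 CPM, and Twist1, at 8.50 and 4.26 CPM. Col3a1, Postn, Lum and Dcn had at most 6 UMIs in either library. All intervals below are 95% intervals and cover counting error only.

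Between the libraries, Rif1 had the CPM ratio farthest from 1 among the 8 genes and was the one past the size rule, a CPM ratio of at least 1.5 in either direction among genes with at least 50 UMIs and 1 CPM. Rif1 stood at 625 CPM in the positive library (Poisson interval 621 to 630) and 366 CPM in the negative library (363 to 369). The ratio was 1.71 (1.69 to 1.73). After scaling by TMM, which trims the most different genes before setting library sizes, the log2 ratio of Rif1 was 0.48 instead of 0.77 and no longer passed. The rule was met as higher in the positive library by 27.4% of the 14590 tested genes and as lower by 6.71%, so 1 gene of 8 is no larger a share than among tested genes as a whole. The median tested gene was 0.22 higher on the log2 scale in the positive library. TMM moved all ratios of this comparison by -0.29, and 5 of the 8 genes lay above the median gene under either scaling.

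Of the shelterin genes, Tinf2 stood at 16.1 CPM in the positive and 11.7 CPM in the negative library, a ratio of 1.38 (1.30 to 1.47). Pot1a stood at 17.2 and 12.9 CPM, a ratio of 1.33 (1.26 to 1.42). Acd stood at 17.8 and 14.7 CPM, a ratio of 1.22 (1.15 to 1.29). These values lay above those of the negative library without reaching the size rule, and Acd turned to a log2 ratio of -0.01 with TMM. Terf2 stood at 18.5 and 18.2 CPM, a ratio of 1.02 (0.967 to 1.08) whose interval includes 1, and with TMM its log2 ratio was -0.27. Terf1 was the one member lower in the positive library under CPM, at 177 against 203 CPM, a ratio of 0.872 (0.858 to 0.887). With TMM its log2 ratio was -0.49, slightly farther from 0 than that of Rif1. The shelterin transcripts thus had no common direction between the libraries. Gmpr2, the antisense partner of Tinf2, stood at 13.3 and 12.3 CPM, a ratio of 1.08 (1.02 to 1.16), and Carmil2, the partner of Acd, at 1.24 and 1.27 CPM.

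Tert, the catalytic subunit, was sparse, with 390 UMIs in the positive and 351 in the negative library. That is 2.82 against 2.24 CPM, a ratio of 1.26 (1.09 to 1.46). With TMM the log2 ratio of Tert was 0.04. Among cells with 15000 to 30000 UMIs, a band chosen after the data were seen, it turned to -0.11. Terc, the RNA template of telomerase, was listed with 0 UMIs in both libraries. Whether the libraries could capture this RNA is not given in the sources used here, so the 0 is not read as its absence from the cells. Atrx stood at 245 and 224 CPM, a ratio of 1.09 (1.08 to 1.11), which turned to a log2 ratio of -0.16 with TMM. Levels are not compared between genes, since CPM is not scaled to transcript length and the way transcripts were captured is not given in the sources used here.

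**Figure D1:**
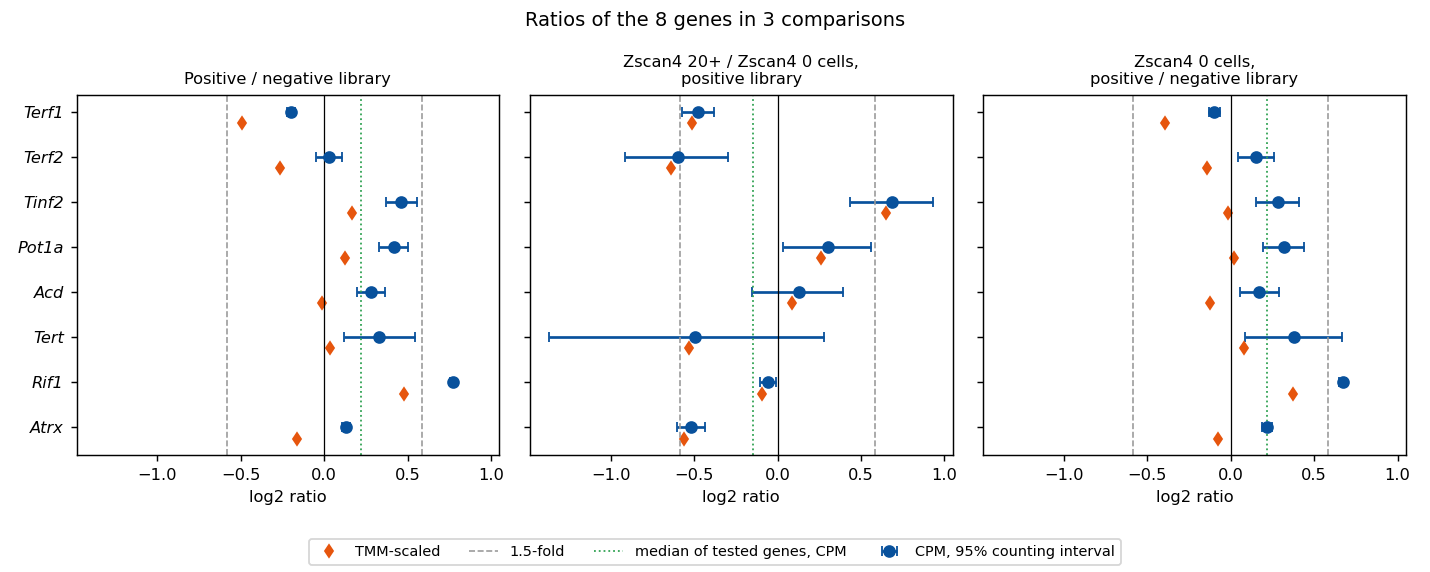
Log2 ratios (x axis) of the 8 genes (y axis) in 3 comparisons: circles are CPM ratios with 95% counting intervals, diamonds the TMM-scaled ratios, dashed lines 1.5-fold and the dotted line the median tested gene. Rif1 lies past the dashed line under CPM in both comparisons between libraries and inside it under TMM, while Tinf2 and Terf2 lie past it in opposite directions in the Zscan4 comparison.

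Within the positive library the cells were classed by their Zscan4 UMIs after every cell had been thinned to 10000 UMIs. There were 1404 cells with 0, 1905 with 1 to 4, 741 with 5 to 19 and 352 with 20 or more, called Zscan4-high. In the negative library 3808 cells had 0 and 16 had 1 or more. Class 0 was set from thinned UMIs, and its cells still held 47.6 CPM of Zscan4 when all their UMIs were summed, against 4703 CPM in Zscan4-high cells. The class limits cut a continuous range, with 181 cells between 15 and 24 UMIs.

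Over the 4 classes the shelterin genes went separate ways. Tinf2, the linker of the complex, stood at 14.2 CPM in class 0, 15.5 in class 1 to 4, 19.9 in class 5 to 19 and 22.9 in Zscan4-high cells. The first 2 intervals overlapped (13.2 to 15.3 and 14.6 to 16.5), as did the last 2 (18.0 to 22.0 and 19.5 to 26.7), and the gap lay between the classes 1 to 4 and 5 to 19. Pot1a, which binds the single-stranded end, had 16.0, 17.3, 18.3 and 19.7 CPM in the same order, with every neighbouring pair of intervals overlapping. Terf2, which guards chromosome ends against fusion, ran the other way, with 20.2, 18.6, 17.0 and 13.4 CPM and overlapping intervals for every neighbouring pair. Terf1, its partner on the double-stranded repeat, had 190, 180, 152 and 136 CPM, and its intervals were separate for every neighbouring pair. Acd had 16.5, 18.4, 19.7 and 18.1 CPM, which is no order, and its neighbouring intervals overlapped.

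Atrx stood in the same order as Terf1, with 260, 249, 219 and 181 CPM and all neighbouring intervals separate. Tert had 2.91, 2.82, 2.66 and 2.07 CPM, from 139, 173, 54 and 15 UMIs, and none of its intervals was separate from the next. Rif1 had no single order, with 583, 647, 677 and 561 CPM. It rose up to class 5 to 19 and was lowest in Zscan4-high cells. Its intervals were separate for every neighbouring pair (576 to 590, 641 to 654, 666 to 688 and 544 to 578). Those of the first class and the last overlapped. In all, the levels of 4 of the 8 genes were in falling order over the classes, 2 in rising order and 2 in neither. Of the 14494 tested genes 57.7% were lower in Zscan4-high than in class 0 cells. How many tested genes stood in falling or rising order over all 4 classes was not counted, so these orders are not read as particular to the 8 genes.

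**Figure D2:**
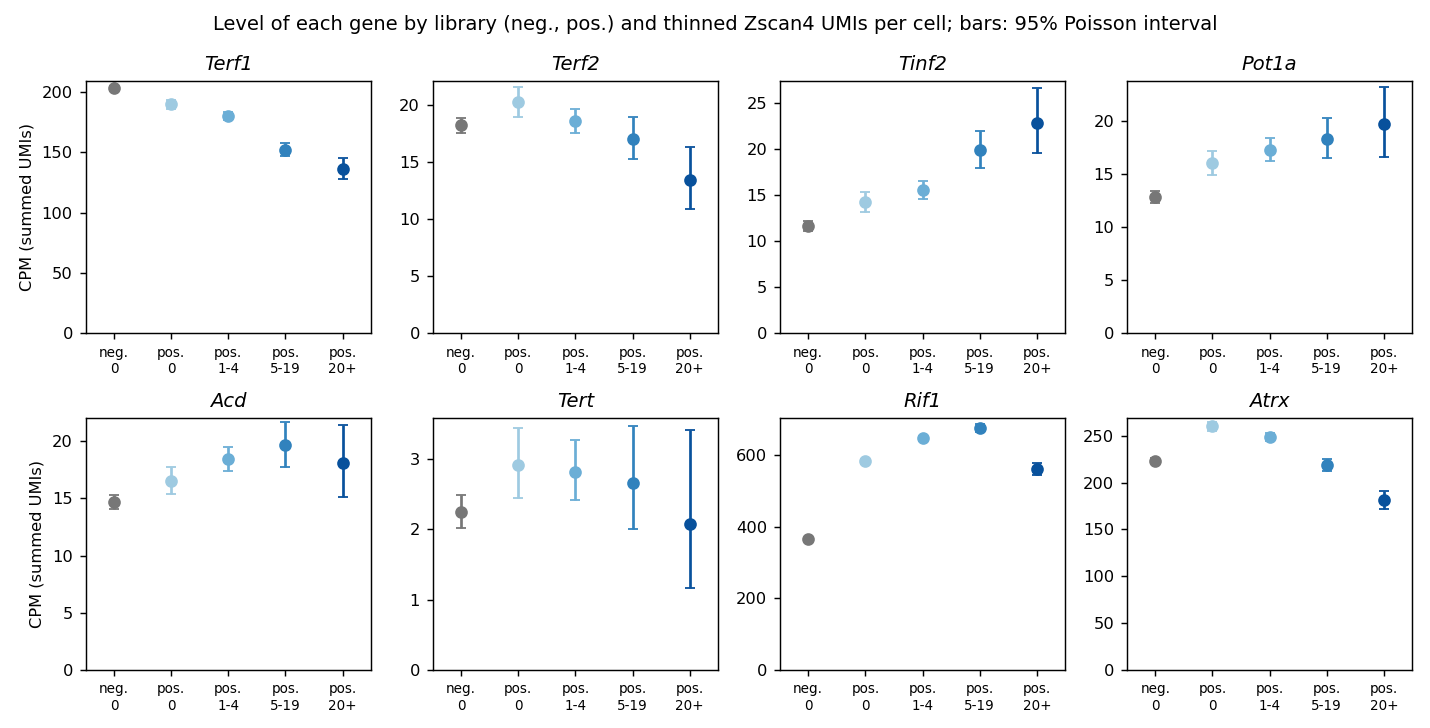
CPM of each gene (y axis, from 0) with 95% Poisson intervals in Zscan4-0 cells of the negative library (grey) and in the 4 Zscan4 classes of the positive library (blue, darker with more Zscan4 UMIs). Terf1 and Atrx go from 190 to 136 and from 260 to 181 CPM over the blue classes, Tinf2 from 14.2 to 22.9, and Rif1 stands at 366 CPM in the negative library and at 561 or more in every blue class.

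Zscan4-high cells were then set against Zscan4-0 cells of the same library. Tinf2 was higher past the size rule, with a ratio of 1.61 (1.35 to 1.91), from 166 and 678 UMIs. Gmpr2, which overlaps it on the other strand, had 13.5 and 12.9 CPM, a ratio of 1.05 (0.837 to 1.30). Terf2 was lower past the rule, with a ratio of 0.661 (0.531 to 0.815), from 97 and 965 UMIs. Atrx, at 0.698 (0.659 to 0.739), and Terf1, at 0.719 (0.673 to 0.768), were lower by less than the rule asks, with intervals that exclude 1, although some cell cycle terciles given below put them past it. Pot1a had a ratio of 1.23 (1.02 to 1.48), Acd of 1.09 (0.901 to 1.32), Tert of 0.710 (0.387 to 1.21) and Rif1 of 0.963 (0.931 to 0.995). Of the 14494 tested genes 19.7% were higher and 26.5% lower by this rule, so the members' 1 higher and 1 lower of 8 do not stand out from tested genes. The median tested gene had a log2 ratio of -0.15. TMM moved these ratios by -0.04 and turned no member's direction.

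Both calls lie close to the limit of the rule. Tinf2 kept a positive log2 ratio in all 19 settings tried, from 0.27 for any Zscan4 UMI against 0 to 0.77 with the stricter cell filter, and Terf2 a negative one in all 19, from -0.19 for any Zscan4 UMI to -1.40 in the lower cell cycle tercile, where only 16 Zscan4-high cells remained. With another draw of the thinning Terf2 was at -0.44, inside the rule, and Tinf2 at 0.69. With the stricter cell filter Terf2 was at -0.46, also inside, and Tert was past the rule as lower, at -0.63. Without endoderm-high cells Tert was past it as well, at -0.63. The direction of Rif1 differed between settings, with log2 ratios from -0.25 to 0.28. Those of Pot1a and Acd turned to -0.68 and -0.33 in the lower cycle tercile, Pot1a past the rule, and Acd stood at -0.05 with a deeper thinning of the cells. Tert, the sparsest, turned to 1.64 in that tercile.

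Several properties of the cells moved with the Zscan4 class. From class 0 to Zscan4-high cells, the median depth went from 33379.5 to 19297.5 UMIs and the median mitochondrial share from 2.35% to 3.32%. The share of cells in the upper cell cycle tercile, those with most G2/M relative to S phase transcripts, went from 34.2% to 66.8%. The 7 pluripotency markers went from a summed 3061 to 1165 CPM, all 7 above 1 CPM in both, and the 10 endoderm markers from 255 to 89.4 CPM. Among cells with 15000 to 30000 UMIs, a band chosen after the data were seen, the log2 ratios were 0.66 for Tinf2, -0.76 for Terf2, -0.39 for Atrx and -0.36 for Terf1. Within the upper cycle tercile they were 0.58, -0.70, -0.44 and -0.46, so Tinf2 was just inside the rule there. Within the middle tercile they were 0.72, -0.60, -0.51 and -0.77, which puts Terf1 past the rule. Within the lower tercile, with 16 Zscan4-high cells, they were 0.38, -1.40, -1.01 and -1.49, with Terf2, Atrx and Terf1 past it and Tinf2 inside. The part of the mitochondrial share and of the marker levels in these ratios was not tested.

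To compare the libraries among cells with 0 thinned Zscan4 UMIs, Zscan4-0 cells of the positive library were set against Zscan4-0 cells of the negative library. This does not leave out every cell with a Zscan4 UMI: with all UMIs summed, the former held 47.6 and the latter 0.148 Zscan4 CPM. Whether these UMIs were transcribed by the cells that hold them was not tested. In the same cells the 12 markers of the 2-cell-like state, Zscan4a to Zscan4f among them, summed to 87.7 and 0.405 CPM. The part of this remainder in the ratios was not tested. Rif1 stood at 583 CPM in the former (576 to 590) and 366 CPM in the latter (363 to 369), a ratio of 1.59 (1.57 to 1.62), and was again the one member past the size rule. TMM brought it to a log2 ratio of 0.37, inside the rule, and in the lower cell cycle tercile it stood at 0.56, also inside. Of the 14333 genes tested, 22.1% were higher and 4.19% lower, and TMM moved all ratios by -0.30. Positive-library cells with 0 thinned UMIs of both Zscan4 and GFP, 760 in number, had 560 Rif1 CPM (551 to 570), and the 644 with GFP UMIs had 609 CPM (599 to 620). With all UMIs summed, the 760 cells still held 24.03 GFP and 39.3 Zscan4 CPM. The higher Rif1 level of the positive library was thus present in cells without a thinned reporter or Zscan4 molecule, and its size depended on the scaling. The other 7 genes had ratios from 0.934 for Terf1 to 1.30 for Tert. The directions of Terf2, Tinf2, Acd and Atrx turned with TMM, to log2 ratios of -0.14, -0.01, -0.12 and -0.08.

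Rif1 varied more from cell to cell in the positive than in the negative library. At 10000 UMIs per cell, the median positive-library cell had 5 Rif1 UMIs, with a 10th percentile of 1, a 90th of 12 and a maximum of 50. The median negative-library cell had 3, with a 10th percentile of 1, a 90th of 7 and a maximum of 16. The variance of Rif1 UMIs over cells was 4.34 times the mean in the positive and 1.53 times the mean in the negative library. A ratio of 1 is what counting alone gives, and the part above 1 grows with a gene's level, so genes are not ranked by it here. Divided by the mean, a measure added after these values were seen, the part above 1 was 0.547 in the positive and 0.147 in the negative library. Over the Zscan4 classes the variance was 2.80 times the mean in class 0, 4.32 in class 1 to 4, 6.25 in class 5 to 19 and 6.03 in Zscan4-high cells. The thinned means of these classes lay close together, at 5.78, 6.32, 6.43 and 5.52 UMIs, and the part above 1 divided by the mean was 0.311, 0.525, 0.817 and 0.911.

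**Figure D3:**
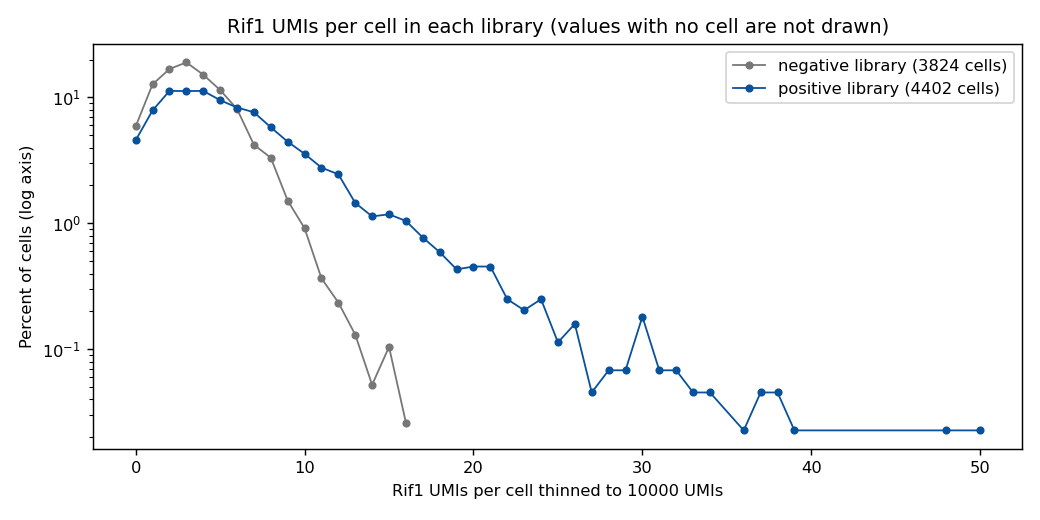
Percent of cells (y axis, log scale) at each number of Rif1 UMIs (x axis) after thinning to 10000 UMIs, in the positive library (blue) and the negative library (grey). The grey line ends at 16 UMIs, and the blue line runs on to 50.

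In the positive library 196 of 4402 cells, or 4.45% (exact binomial interval 3.86 to 5.10), had 17 or more Rif1 UMIs, above the maximum of the negative library. The limit was set after the values were seen and describes these libraries. In the negative library 0 of 3824 cells reached it by construction. The share by class was 2.42% in class 0 (1.68 to 3.37), 4.51% in class 1 to 4 (3.63 to 5.55), 7.02% in class 5 to 19 (5.29 to 9.10) and 6.82% in Zscan4-high cells (4.42 to 9.98). These 196 cells had a median of 30184 UMIs and 2.75% mitochondrial UMIs, against 30176.5 UMIs and 2.51% in the other 4206 thinned cells. Their Zscan4 level was 694 against 462 CPM, their GFP level 259 against 201 CPM, and their summed endoderm markers 56.1 against 241 CPM. The share in the upper cycle tercile was 61.2% against 42.5%. Values of the remaining members lay closer together: Terf1 had 198 against 176 CPM, Tinf2 19.5 against 16.0 and Tert 2.48 against 2.80, and Atrx had 290 against 243 CPM.

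Rif1 was lower in cells that transcribed endoderm markers, in both libraries. Among Zscan4-0 cells, those with 10 or more thinned UMIs of the 10 endoderm markers, among them Gata6, Gata4 and Sox17, were called endoderm-high: 130 cells in the positive and 173 in the negative library. In the positive library Rif1 stood at 232 CPM in endoderm-high cells and 617 CPM in the rest, a ratio of 0.376 (0.352 to 0.400). Negative-library cells had 179 and 375 CPM, a ratio of 0.479 (0.452 to 0.506). The rule was met as lower by 24.5% of 13988 tested genes in the positive and by 18% of 13750 in the negative library, and as higher by 14.1% and 18.6%. Below Rif1 lay 9.19% and 9.90% of tested genes. Rif1 stayed past the rule with TMM, with 20 or more endoderm UMIs as the limit and within the upper cycle tercile, at log2 ratios of -1.70 to -1.41 in the positive and -1.24 to -1.06 in the negative library.

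The more endoderm UMIs the cells had, the lower their Rif1 level was beyond 4 UMIs. In the positive library it was 632 CPM with 0 endoderm UMIs, 618 with 1 to 4, 330 with 5 to 9, 247 with 10 to 19 and 216 with 20 or more. In the negative library the same classes had 373, 389, 266, 186 and 166 CPM. The intervals of the classes 10 to 19 and 20 or more overlapped in both libraries. They were 226 to 268 and 197 to 237 in the positive library, and 173 to 198 and 150 to 184 in the negative library. Up to 4 endoderm UMIs the levels of a library lay close together, and above that the 2 libraries were closer to each other. Sox2, a pluripotency factor, went from 645 to 35.3 CPM over these classes of the positive and from 559 to 54.0 over those of the negative library, while Pou5f1, another, went from 328 to 284 and from 392 to 365. Classes with 5 to 9 UMIs held 45 cells in each library. The pluripotency list as a whole summed to 919 CPM in endoderm-high and 3271 CPM in endoderm-low cells of the positive library, and to 1232 and 3303 CPM in the negative library.

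**Figure D4:**
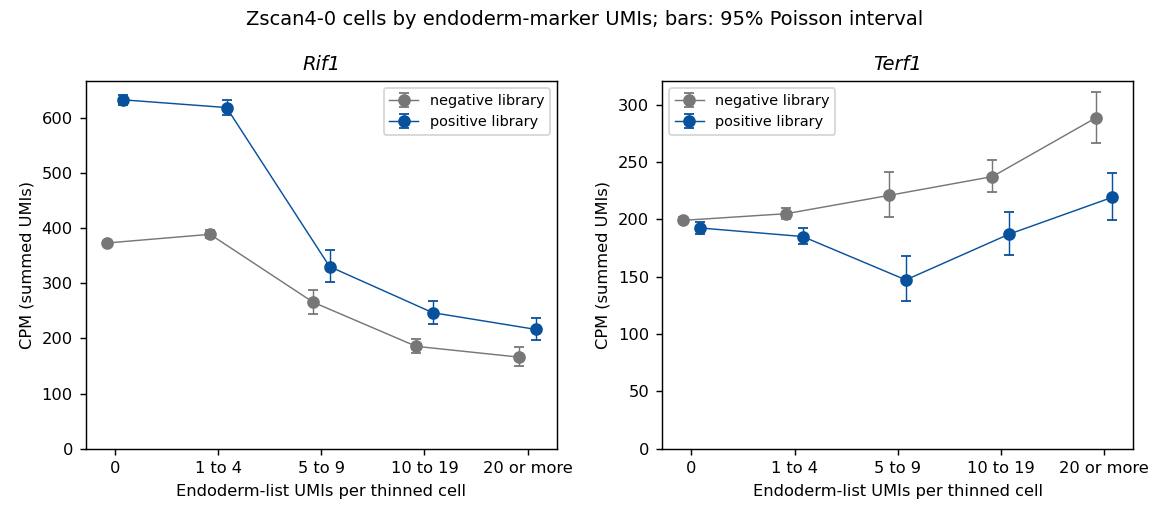
CPM of Rif1 (left) and Terf1 (right) with 95% Poisson intervals (y axes, from 0) in Zscan4-0 cells grouped by their thinned endoderm-marker UMIs (x axis), in the positive (blue) and negative library (grey). Rif1 goes from 632 to 216 CPM in the positive and from 373 to 166 CPM in the negative library, and Terf1 does not follow it.

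No shelterin gene met the rule between endoderm-high and endoderm-low cells. Terf1 stood at 203 against 188 CPM in the positive library, a ratio of 1.08 (1.002 to 1.15), and at 254 against 201 CPM in the negative library, a ratio of 1.26 (1.20 to 1.33). Terf2 had a ratio of 0.736 (0.563 to 0.948) in positive-library cells, against 0.928 (0.765 to 1.12) for the negative library. Tinf2, Pot1a and Acd had intervals that include 1 in both libraries. Tert met the rule as lower in the positive library, with a ratio of 0.541 (0.213 to 1.15), but from 7 UMIs and with an interval that includes 1, and its negative-library ratio was 1.24 (0.737 to 1.97). The latter is a log2 ratio of 0.31, which turned to -0.90 within the upper cycle tercile and to -0.75 with 20 or more endoderm UMIs, both past the rule, so the direction of Tert in the negative library differed between settings. Atrx had ratios of 0.897 (0.841 to 0.957) and 0.904 (0.856 to 0.954). Endoderm-high cells made up 9.26% of class 0 and 1.42% of Zscan4-high cells. Among endoderm-low cells alone, Rif1 had 617, 687, 701 and 567 CPM over the Zscan4 classes, so its lack of order remained.

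The cell cycle terciles were cut over the cells of both libraries together, by G2/M against S phase transcripts. Of the positive-library cells 43.3% were in the upper tercile and 21.2% in the lower, and of the negative-library cells 21.8% and 47.1%. No member met the size rule between the upper and lower terciles of either library, where 12.2% of tested genes were higher and 4.47% lower in the positive library, and 6.28% and 0.94% in the negative library. Terf1, whose protein is known to act at mitosis as well as at telomeres, had the largest ratio in the negative library, 1.36 (1.32 to 1.39), from 247 and 182 CPM, and 1.15 (1.11 to 1.19) in the positive library. Tinf2 had the largest ratio in the positive library, 1.32 (1.17 to 1.48), and 1.12 (0.998 to 1.26) in the negative library. Rif1 had 662 against 561 CPM in the positive library, a ratio of 1.18 (1.16 to 1.20), and 375 against 363 CPM in the negative library, where its log2 ratio of 0.05 turned to -0.05 with TMM. Within each tercile Rif1 was higher in the positive than in the negative library, at log2 ratios of 0.63, 0.76 and 0.82 from the lower to the upper tercile.

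Beyond the 8 genes, 83 other telomere genes in 9 lists were followed, of which 79 could be tested. Between the libraries 12 of the 79 were higher in the positive library and 1 lower, at the background of 27.4% and 6.71% given above, with a median log2 ratio of 0.08 against 0.22 for all tested genes. With TMM, 5 were higher and 13 lower. The largest ratios were those of Tcstv3, with 53.1 CPM in the positive and 2 UMIs in the negative library, a ratio of 4153 (1149 to 34296), and Tcstv1, at least 67.5-fold higher against a floor of 3 counts in the negative library. Both are genes of the 2-cell-like state that are near-identical copies of each other, so reads may be split between them. Zbtb10, a zinc finger protein that binds telomeric repeats, followed with 21.4 against 7.73 CPM, a ratio of 2.77 (2.59 to 2.97). Trim28, the corepressor that works with Setdb1 on repeats, had 766 against 390 CPM, a ratio of 1.97 (1.95 to 1.98), and Slx4, a nuclease scaffold, 11.7 against 6.10 CPM, a ratio of 1.91 (1.76 to 2.07). These 5 genes stayed past the rule with TMM. Trp53bp1, with which RIF1 acts at breaks, had 17.1 against 10.6 CPM, a ratio of 1.61 (1.51 to 1.72), which did not pass with TMM. Shld2, a shieldin subunit that acts downstream of both, was the one gene lower, at 11.7 against 20.4 CPM, a ratio of 0.573 (0.539 to 0.608).

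In Zscan4-high against Zscan4-0 cells 10 of the 79 were higher and 18 lower, against 19.7% and 26.5% of all tested genes, with a median log2 ratio of -0.23 against -0.15. Recombination and repair genes had 3 higher and 10 lower of 23. Rad52, the recombinase mediator, stood at 15.7 against 5.96 CPM, a ratio of 2.64 (2.11 to 3.29). Rmi1, of the complex that dissolves recombination intermediates, had a ratio of 1.75 (1.53 to 2.00). Shld2 had 3.59 against 15.3 CPM, a ratio of 0.234 (0.152 to 0.346), and Shld1, another shieldin subunit, 2.48 against 6.23 CPM, a ratio of 0.399 (0.233 to 0.641).

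Of the 17 replication and end processing genes 3 were higher and 0 lower. Slx4 stood at 19.7 against 9.27 CPM, a ratio of 2.13 (1.75 to 2.57), and Mus81, the nuclease that works with it, at 20.8 against 10.8 CPM, a ratio of 1.93 (1.60 to 2.32). Of 14 tested telomerase genes 0 were higher and 3 lower. Of the 3 genes of CST, the complex that ends telomere synthesis, Ten1 was lower, at 10.2 against 24.2 CPM, a ratio of 0.421 (0.329 to 0.533). Cbx5, a heterochromatin protein, had a ratio of 0.503 (0.463 to 0.545) and is also in the G2/M list used for the cycle terciles. Majin, which tethers telomeres in meiosis, had 3 and 51 UMIs, a ratio of 0.387 (0.0772 to 1.20) whose interval includes 1. Tcstv1 and Tcstv3, at 31.2 (16.6 to 64.0) and 29.9 (27.4 to 32.6), are expressed with Zscan4 and so differ with the class. Terf2ip, which encodes the shelterin partner RAP1 and was singled out after its values were seen, had 32.8 against 19.4 CPM, a ratio of 1.70 (1.47 to 1.96), and 21.4 against 13.5 CPM between the libraries, a ratio of 1.58 (1.497 to 1.68). The latter did not pass with TMM, at a log2 ratio of 0.37. Terf2, whose protein RAP1 binds, had the opposite direction in the Zscan4 comparison.

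**Figure D5:**
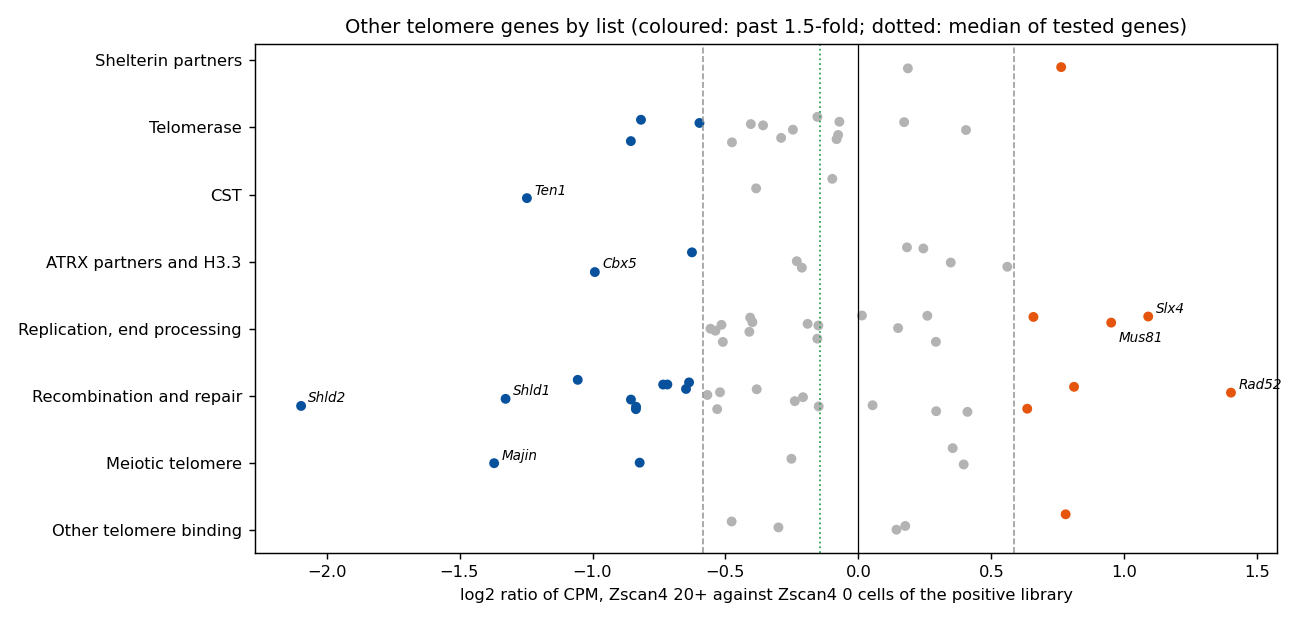
Log2 ratio of CPM in Zscan4-high against Zscan4-0 cells of the positive library (x axis) for the tested telomere genes of 8 lists (y axis, with vertical scatter for legibility), orange and blue where past 1.5-fold. The median of all tested genes lies left of 0 as well, at -0.15, and Rad52, Slx4 and Mus81 lie farthest right; Tcstv1 and Tcstv3 are left out for scale.

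The genes closest in pattern to each member were found among 7725 genes by Pearson correlation of log2(CPM + 1) over 8 sets of cells, made by library, Zscan4 class and endoderm class. The sets share 2 libraries and differ in depth, so the values describe and do not test. For Rif1, which spanned 1.96 on the log2 scale, they were Wdr33, Ppm1b and Zfp981, with r of 0.996, 0.995 and 0.993. For Terf1 they were Tvp23b, Timm9 and Pih1d1, with r of 0.997, 0.996 and 0.995. For Tinf2 they were Tmem189, Ppig and Gm32856, with r of 0.995, 0.994 and 0.994, and for Atrx they were Med1, Yme1l1 and Itpa, with r of 0.984, 0.977 and 0.972. For Pot1a they were Sap130, H2-Bl and Syne2, with r of 0.994, 0.993 and 0.992. Terf2, with Epcam, Prrc2b and Nln at 0.955, 0.929 and 0.928, Acd, with Fam8a1, Yap1 and Ppme1 at 0.969, 0.968 and 0.966, and Tert, with Nfatc2ip, Fbxw2 and Fbxo3 at 0.9504, 0.935 and 0.934, had weaker matches and spanned 0.58, 0.40 and 0.61 on the log2 scale. No member was among the 3 closest genes of another.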

How the data were processed

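Single-cell transcriptomes of mouse embryonic stem cells were analysed in 2 libraries, 1 for each group. The authors deposited sparse matrices of whole-number counts. They are treated as UMIs, given cell barcodes of 16 bases, although the labels do not state molecule counting. Feature IDs and names came from the deposited feature tables, and barcodes (another deposited unit) name the cells. The submitters' processing notes name FastQC 0.11.2, Trim Galore 0.6.4, STAR 2.7.6a and mm10, the build GRCm38; the kit text in the labels describes bulk libraries, and cell capture is not given in the sources used here.

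Cells with at least 1000 UMIs, 500 genes and at most 20% mitochondrial UMIs were kept, which removed 7 and 0 cells. Doublets were not removed, and RNA from outside the cells was not estimated. Each cell was thinned to 10000 UMIs to set Zscan4, endoderm and cell cycle classes, leaving out 194 and 8 shallower cells, and unthinned UMIs were summed per class and scaled to CPM. Summed counts have exact Poisson intervals, shares exact binomial (Clopper-Pearson) intervals and ratios exact conditional intervals, at 95%. With 1 library a group no p-value was computed; the size rule is a ratio of at least 1.5 among genes with at least 50 UMIs and 1 CPM. All 8 members are named in each comparison, and of the other telomere genes at most the 6 past the rule with the largest ratios in each direction in the library and Zscan4 comparisons, of which 1 is not reported here; for genes of like pattern, the 3 with the highest correlation among genes with at least 10 CPM on average, over sets of at least 50 cells. The members and gene lists were chosen with earlier results of these data known. Alternatives changed scaling, filters, limits, classes and cells. The steps were tested on simulated data. Tools were edgeR 4.0.16 in R 4.3.3, used for TMM only, and scipy 1.17.1, matplotlib 3.10.9, pandas 2.3.3 and numpy 2.4.6 in Python 3.11.15.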

Additional observations from a re-analysis of the deposited data

How the results depend on the processing

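No paired analysis was possible because there was 1 library per group. The count of the 8 genes past the size rule was 1 between the libraries (Rif1), 2 for Zscan4-high against Zscan4-0 cells (Tinf2 and Terf2), 1 between the Zscan4-0 cells of the libraries (Rif1), 2 and 1 for endoderm-high against endoderm-low cells of the positive and negative library, and 0 in both for the cycle terciles. With TMM the counts between libraries and between their Zscan4-0 cells were 0 and 0. A rule of 5 to 4 for the ratio gave 4, 5 and 2 for the first 3 comparisons and 1 and 1 for the cycle terciles, and a rule of 2 to 1 gave 0, 0 and 0. In the Zscan4 comparison the count was 1 without cells above 2 times the median UMIs, 1 with CPM + 1, 4 in the lower cycle tercile, 1 in the upper, 0 for 5 or more Zscan4 UMIs, 0 for any, and 1 (Tert) for Zscan4d alone. In settings chosen after the data were seen, cells with 15000 to 30000 UMIs gave 2 between the libraries, and the upper cycle tercile gave 1 and 2 for the endoderm comparisons. A limit of 20 endoderm UMIs gave 2 in the negative library. In the Zscan4 comparison the stricter cell filter kept the count at 2, with Tert in place of Terf2. Leaving out endoderm-high cells there gave 3, with Tert added. Between Zscan4-0 cells the lower cycle tercile gave 1, Tert in place of Rif1, whose log2 ratio there was 0.56. Shares of all tested genes past the rule are given here for the main setting only. Counts of members at other settings therefore have no background beside them and are not read as particular to the 8 genes. Why these counts moved was not tested.

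Of 416 alternative values of single members' ratios, 308 moved by less than their counting interval, 108 by more, and 0 of those past the rule turned; 30 changed sign, 8 of them under TMM. Counts of other telomere genes stayed within 1.5 times in 97 of 132 alternatives. Depth limits Tert most: with 15 UMIs in Zscan4-high cells and 7 in endoderm-high cells of the positive library, its intervals include 1, and no difference was detectable there.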
